A study of Mus musculus with 12 samples.

Results

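Lipid droplet proteins and their lipase partners were followed here as 10 genes in the livers of ob/ob mice: the coat proteins Plin2, Plin4 and Plin5, the fusion proteins Cidea, Cideb and Cidec, the budding proteins Fitm1 and Fitm2, the triglyceride lipase Pnpla2 and the droplet enzyme Hsd17b13. The genes were chosen by name, and all 10 were found among the 56205 genes of the count table. All 10 also passed the low-count filter that left 13416 genes to test. The animals lack leptin (B6.Cg-Lepob/J), eat to obesity and store fat in the liver, and both groups share this genotype. Male mice, 8 to 10 weeks old at the start, received standard chow alone (FLO, 6 mice) or chow with DL ethionine, an ethyl analogue of methionine (fibrotic, 6 mice). The sample labels put the ethionine at 0.165% of the drinking water, and the design text gives a duration of 2 weeks. The growth protocol gives an injection of 0.15%, and the study's methods give 0.15% in the drinking water for a shorter course. Each library held poly(A) RNA of 1 whole liver, so that fewer cells of a type and less RNA per cell cannot be told apart.

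A lipid droplet is a core of triglyceride and sterol ester under a phospholipid monolayer that carries proteins. Perilipins coat the surface and control the access of lipases, CIDE proteins gather at contact sites and move lipid from smaller into larger droplets, and FIT proteins sit in the endoplasmic reticulum where new droplets bud. Stored triglyceride is released by the lipase of Pnpla2 (ATGL), which is switched on by the protein of Abhd5 (CGI-58) and held back by that of G0s2. In a fatty liver the hepatocyte takes on several genes that are otherwise typical of adipose tissue, Cidea and Cidec among them.

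Library totals ran from 17815568 to 24814263 counts, and each of the 10 genes held at least 176 counts in every library. The mitochondrial share of counts was 8.62 ± 1.09% (SD, n = 6) in FLO and 6.49 ± 1.15% (SD, n = 6) in fibrotic libraries (two-sided exact permutation test, p = 0.0108), and the TMM scaling factor 0.941 and 1.07 (exact permutation p = 0.00216). The part of these shifts in the results was not tested. FLO replicate 3 stood apart, with 3773 counts of the female-specific transcript Xist and 4 of the Y-linked gene Ddx3y, although the labels state males. It also held 171.3 CPM (counts scaled to library size) of 5 skeletal muscle markers, FLO replicate 2 held 73.7 CPM, and the other libraries held at most 2.11 CPM. Results that change without FLO replicate 3 are marked as they come. Levels are CPM of the normalized library size throughout. A change was called where the false discovery rate (FDR, edgeR quasi-likelihood test over all genes) was at most 0.01 and the log2 fold change exceeded 0.5 in size.

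Of the 10 genes, 1 rose (Fitm2), 2 fell (Cideb and Hsd17b13) and 7 were not called. The 3 called genes are 30% of the 10, beside 29.9% of all tested genes called in either direction, 15.9% higher and 14.0% lower, so the share is that of the transcriptome at large. The median log2 fold change of the 10 genes was -0.47, against 0.03 over all tested genes. FLO and fibrotic values did not overlap for 2 of the 10 genes, both lower in fibrotic livers, beside 30.4% of all tested genes, 15.1% in that direction. 

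**Figure D1:**
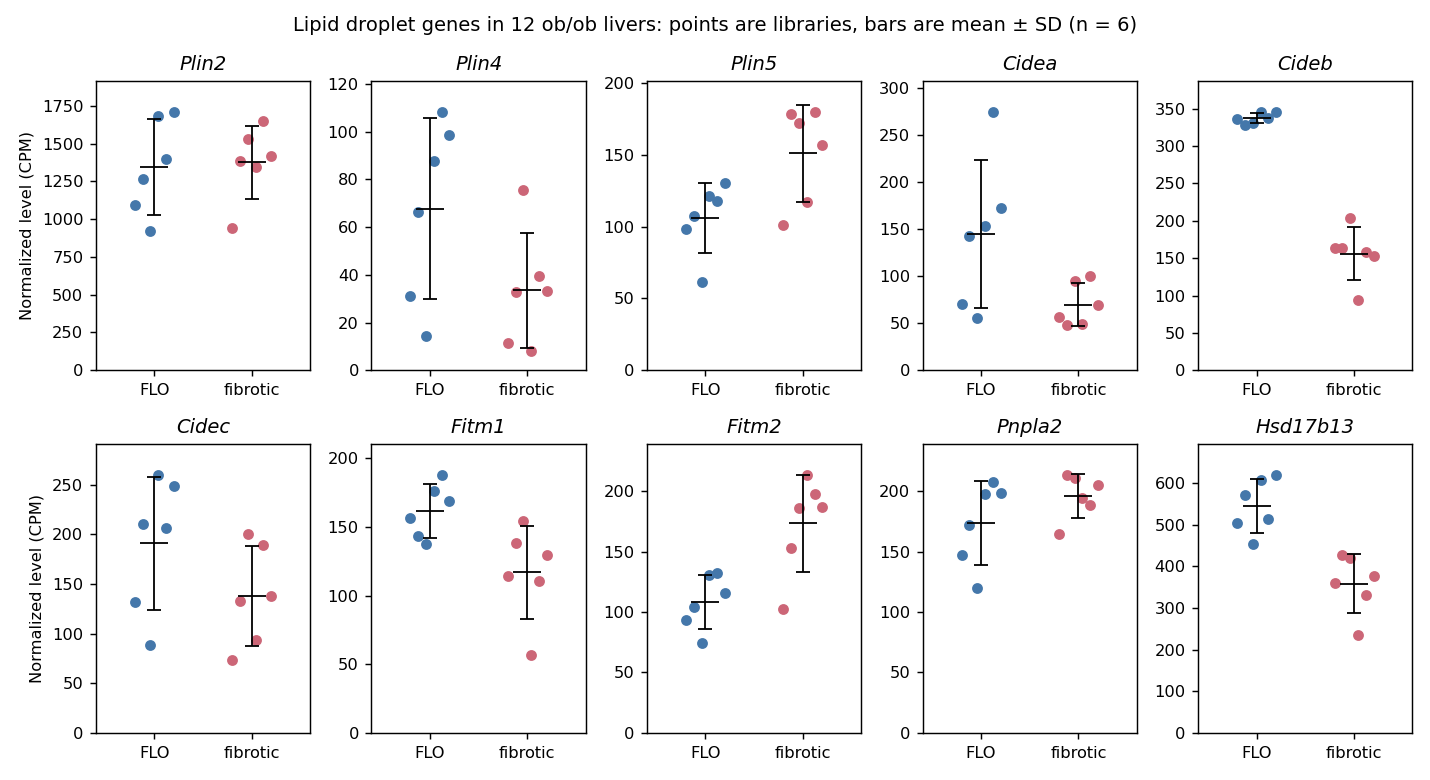
Normalized level (CPM, vertical axis from 0) of each of the 10 lipid droplet genes in FLO (blue) and fibrotic (red) livers. Points are single libraries and bars are mean ± SD (n = 6). Cideb lies between 329 and 346 CPM in FLO livers and at 203 CPM or below in fibrotic livers, whereas Plin2 covers the same range in both groups.

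The sequence before the transcription start was taken from RefSeq (GRCm38.p6) for the 3 called genes, since these are the ones whose transcript level differed. Each is given 5′ to 3′ on the strand of the gene, up to the base before the first annotated start, with any motif searched for in capitals. Cideb is chr14:55758459-55758674, Fitm2 is chr2:163472630-163472879 and Hsd17b13 is chr5:103977411-103977638, all on the minus strand.
Cideb: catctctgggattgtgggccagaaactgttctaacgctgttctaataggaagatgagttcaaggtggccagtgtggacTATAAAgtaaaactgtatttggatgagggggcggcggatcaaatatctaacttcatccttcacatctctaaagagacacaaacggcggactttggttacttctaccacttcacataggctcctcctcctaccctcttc
Fitm2: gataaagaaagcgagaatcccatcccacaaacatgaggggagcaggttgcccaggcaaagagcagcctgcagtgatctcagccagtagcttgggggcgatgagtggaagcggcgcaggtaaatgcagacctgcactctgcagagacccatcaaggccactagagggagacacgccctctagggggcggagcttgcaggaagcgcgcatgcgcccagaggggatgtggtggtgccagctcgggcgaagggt
Hsd17b13: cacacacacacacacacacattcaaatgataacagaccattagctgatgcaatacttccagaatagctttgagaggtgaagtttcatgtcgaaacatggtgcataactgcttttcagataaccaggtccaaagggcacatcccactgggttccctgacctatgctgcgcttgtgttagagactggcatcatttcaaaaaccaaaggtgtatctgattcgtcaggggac
The capitals in Cideb mark a TATA motif (TATAAA). Of the 10 genes, 9 had a promoter in the RefSeq table, which covers 250 bases before to 50 after the start, and Cidea had none. The DR1 consensus, a direct repeat read by PPAR factors, was searched for on both strands and matched 0 of these 9 genes and 0.381% of all 32851 promoters. The sterol element TCACNCCAC matched 0 genes, beside 1.24% of promoters. The E-box CACGTG matched 1 gene, Plin2, beside 7.15%, the CCAAT box matched 3 (Plin2, Plin4 and Plin5), beside 37.4%, and TATAAA matched Cideb alone, beside 13.6%. None of these matches shared bases with a match of a different motif, and a match or its lack says nothing here about binding.

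Plin2, the main perilipin of hepatocytes, whose protein is stable only on a droplet, was by far the most abundant of the 10 transcripts. Its level ran from 918 through a median of 1333 to 1708 CPM in FLO livers and from 940 through 1399 to 1651 CPM in fibrotic livers. The groups covered the same range. The log2 fold change of Plin2 was 0.03 (SE 0.16, FDR = 0.875), with a 95% interval from -0.31 to 0.38. The sign of this value turned without fibrotic replicate 5 (-0.02), FLO replicate 1 (-0.02) or FLO replicate 3 (-0.06).

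Plin5, the perilipin of oxidative tissues, which binds both the Pnpla2 and the Abhd5 proteins, ran from 61.7 through 113 to 130 CPM in FLO and from 101 through 165 to 179.8 CPM in fibrotic livers. Of the fibrotic libraries, 5 of 6 lay above the FLO median, but the groups overlapped. The Plin5 log2 fold change was 0.51 (SE 0.18, FDR = 0.0273), short of the call. Without fibrotic replicate 1, which had the lowest Plin5 level of its group, the value was 0.60 and was called (FDR = 0.00895). This was the largest Plin5 value with 1 library left out. The smallest was 0.39, without FLO replicate 3, which is under the size limit of the call. A sex covariate also gave 0.39. The FDR reached 0.0587 without fibrotic replicate 2. A difference between both perilipins was tested within each library, where scaling plays no part. The log2 ratio of Plin2 to Plin5 was 3.67 ± 0.16 (SD, n = 6) in FLO and 3.20 ± 0.18 (SD, n = 6) in fibrotic livers, a difference of -0.47 (two-sided exact permutation test, p = 0.00433, adjusted over 4 ratios 0.00866). A single fibrotic library, with a ratio of 3.52, reached into the FLO range of 3.48 to 3.89.

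Plin4, a perilipin of adipose tissue and muscle that covers newly formed droplets, lies next to Plin5 on the minus strand of chromosome 17 (chr17:56100591-56109803 and chr17:56111601-56117596, GENCODE M21 on GRCm38). Its level was the lowest and the most scattered of the set. Plin4 ran from 14.2 through 77.0 to 108 CPM in FLO and from 8.24 through 33.1 to 75.6 CPM in fibrotic livers. All 6 fibrotic libraries lay below the FLO median, yet the groups overlapped over most of their range. The coefficient of variation was 56.1% in FLO and 72.2% in fibrotic livers. The log2 fold change of -1.01 (SE 0.59, FDR = 0.176) was not called, and its 95% interval ran from -2.32 to 0.29.

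Among the CIDE genes, Cideb was the member that separated the groups. CIDEB, made mainly by hepatocytes, takes part in the loading of lipid into very low density lipoprotein as well as in droplet growth. Cideb (ENSMUSG00000022219) measured 329 to 346 CPM in the 6 FLO livers, with a median of 337, and 93.5 to 203 CPM in the fibrotic livers, with a median of 161. Every fibrotic library was below every FLO library. The log2 fold change was -1.11 (SE 0.13, FDR = 7.11e-06), a 2.17-fold lower level. Cideb was also the steadiest of the 10 genes in FLO livers, with a coefficient of variation of 2.06%, against 22.8% in fibrotic livers. The gene lies at chr14:55754050-55758458 on the minus strand of GRCm38, and 1136 of its 1488 exon bases are also exon of Nop9 on the opposite strand. The strand setting of the counting is unknown, so reads of the shared stretch cannot be assigned to either gene. Nop9, which encodes a nucleolar RNA-binding protein, went the other way, from 22.7 ± 1.18 CPM (SD, n = 6) in FLO to 38.0 ± 2.23 CPM (SD, n = 6) in fibrotic livers.

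Cidea, an adipose gene that is strongly switched on in fatty liver and drives droplet enlargement, ran from 55.4 through 148 to 274 CPM in FLO and from 47.9 through 62.9 to 100.1 CPM in fibrotic livers. All 6 fibrotic libraries lay below the FLO median. The lowest FLO libraries, replicate 3 at 55.4 CPM and replicate 1 at 70.4 CPM, lay within the fibrotic range. The log2 fold change of Cidea was -1.05 (SE 0.36, FDR = 0.0255) and was not called at the threshold of 0.01. The call depended on single libraries. Without FLO replicate 3 the value was -1.22 and was called (FDR = 0.00507), whereas without FLO replicate 5, the highest for Cidea, it was -0.77 (FDR = 0.0548).

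Cidec, also known as Fsp27, the third CIDE gene and a known target of the adipogenic factor PPARG in fatty liver, ran from 88.5 through 208 to 259.99 CPM in FLO and from 73.8 through 135 to 201 CPM in fibrotic livers. The groups overlapped, with FLO replicate 3 (88.5 CPM) and FLO replicate 1 (132 CPM) within the fibrotic range. All 6 fibrotic libraries were below the FLO median. Its log2 fold change was -0.47 (SE 0.29, FDR = 0.192), with a 95% interval from -1.09 to 0.15. Whether Cidec and Cideb changed unequally was tested within libraries. The log2 ratio of Cidec to Cideb was -0.92 ± 0.59 (SD, n = 6) in FLO and -0.23 ± 0.48 (SD, n = 6) in fibrotic livers, and the difference of 0.69 was not past a p of 0.05 (two-sided exact permutation test, p = 0.0563, adjusted over 4 ratios 0.0563). The Cidec to Cideb difference passed that threshold by the exact permutation test without fibrotic replicate 1 (0.87, p = 0.00649), without FLO replicate 4 (0.79, p = 0.0411) or without FLO replicate 6 (0.78, p = 0.0476). It was smallest, at 0.49, without FLO replicate 3. Over all fits with 1 library left out, the exact permutation p reached 0.106.

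Since Cidea, Cidec and Plin4 are abundant in fat cells, adipocyte markers were examined beside them. Adipoq, Lep and Plin1, the perilipin of adipocytes, reached at most 0.485, 0.485 and 0.608 CPM in any library. Cfd, which encodes adipsin, was at 2.43 ± 2.05 CPM (SD, n = 6, highest 5.74) in FLO and 0.0602 ± 0.0958 CPM (SD, n = 6) in fibrotic livers, and FLO was also the group with the higher mean Cidea level. Adig was at 0.463 ± 0.508 and 0.157 ± 0.180 CPM (SD, n = 6), and Retn reached at most 1.67 CPM. Of the 3 brown fat markers, Ucp1 held 4 counts in all libraries together, Cox8b reached 1.88 CPM in FLO and was at 0 in every fibrotic library, and Dio2 was at 0 in every FLO library and reached 1.73 CPM in fibrotic ones. The summed level of all 8 adipocyte markers, which include the liver gene Thrsp, was 1037 to 2018 CPM in FLO and 249.9 to 1400 CPM in fibrotic livers. Thrsp made up most of these sums, with means of 1355 CPM in FLO and 927 CPM in fibrotic livers, so they say little about fat cells. FLO replicate 3 had the highest sum, and the lowest Cidea, Cidec and Plin4 levels of its group. Neither of the 2 adipocyte markers that could be tested, Thrsp and Lipe, was called. The part of fat cells in the levels of Cidea, Cidec and Plin4 was not tested.

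**Figure D2:**
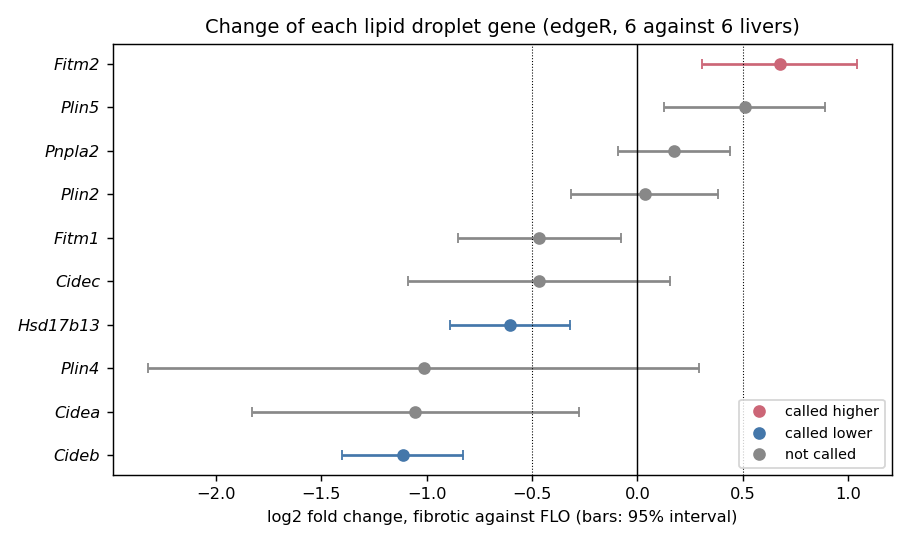
Log2 fold change (horizontal axis) of the 10 lipid droplet genes in fibrotic against FLO livers, with 95% intervals from the edgeR fit. Dotted lines mark 0.5 on each side. Cideb and Hsd17b13 (blue) were called lower and Fitm2 (red) higher, and the intervals of Plin2, Pnpla2, Cidec and Plin4 include 0.

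The pair of FIT genes, which encode membrane proteins of the endoplasmic reticulum, differed in direction. Fitm2, the widely expressed member, whose protein cleaves acyl-CoA and is needed for droplets to bud toward the cytosol, ran from 74.3 through 110.2 to 132 CPM in FLO and from 102 through 186 to 214 CPM in fibrotic livers. A single fibrotic library, replicate 1, fell within the FLO range, and the other five lay above it. The log2 fold change of Fitm2 was 0.68 (SE 0.17, FDR = 0.00426). The call was close to the threshold. Fitm2 was not called without fibrotic replicate 4 (FDR = 0.0106), FLO replicate 1 (FDR = 0.0116) or FLO replicate 2 (FDR = 0.0105), although its log2 fold change stayed at 0.59 or more whichever single library was left out. The antisense transcript 2310001K24Rik, which shares 227 of the 3967 exon bases of Fitm2, was low, at 0.712 ± 0.498 CPM (SD, n = 6) in FLO and 0.925 ± 0.454 CPM (SD, n = 6) in fibrotic livers.

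Fitm1, the member that is typical of skeletal muscle and heart, ran from 137 through 163 to 188 CPM in FLO and from 56.4 through 122 to 154 CPM in fibrotic livers. Its log2 fold change of -0.47 (SE 0.18, FDR = 0.0429) was not called. All 6 fibrotic libraries were below the FLO median, and fibrotic replicate 4 lay far below the other five. FLO replicate 3, with the highest sum of skeletal muscle markers, had the lowest Fitm1 level of its group, as it had for most of the 10 genes. The part of muscle RNA in the Fitm1 values was not tested.

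Hsd17b13, a droplet enzyme of hepatocytes with activity toward retinol, was the second most abundant of the 10 transcripts per kilobase. Hsd17b13 (ENSMUSG00000034528, chr5:103955440-103977410, minus strand) ran from 452 through 542 to 620 CPM in FLO and from 235 through 368 to 426 CPM in fibrotic livers. The groups did not overlap. The log2 fold change was -0.60 (SE 0.13, FDR = 0.00148), a 1.52-fold lower level, and the gene was called with each library left out in turn, at -0.50 without fibrotic replicate 4, just past the size limit.

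Pnpla2, the lipase that takes the first fatty acid off stored triglyceride, ran from 119.9 through 185 to 208 CPM in FLO and from 165 through 199.8 to 214 CPM in fibrotic livers. Its log2 fold change was 0.18 (SE 0.12, FDR = 0.255), with a 95% interval from -0.09 to 0.44. The partners of the enzyme did move. Abhd5, the coactivator, measured 33.2 ± 2.83 CPM (SD, n = 6) in FLO and 57.9 ± 9.74 CPM (SD, n = 6) in fibrotic livers. It rose by 0.80 on the log2 scale (FDR = 1.53e-05), with no overlap between groups. G0s2, the inhibitor, measured 205 ± 37.3 CPM (SD, n = 6) in FLO and 118 ± 43.0 CPM (SD, n = 6) in fibrotic livers. It fell by 0.80 on the log2 scale (FDR = 0.00689), with overlap. G0s2 was no longer called after leaving out fibrotic replicate 1, 2, 5 or 6 or FLO replicate 1, 2, 4 or 6 (FDR up to 0.0174), without both FLO replicate 3 and fibrotic replicate 4 (FDR = 0.0121), or with no low-count filter (FDR = 0.0265).

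Within libraries, the log2 ratio of Pnpla2 to G0s2 was -0.24 ± 0.32 (SD, n = 6) in FLO and 0.81 ± 0.48 (SD, n = 6) in fibrotic livers. The difference was 1.06, with overlap of a single FLO library (two-sided exact permutation test, p = 0.00433, adjusted over 4 ratios 0.00866). The log2 ratio of Pnpla2 to Abhd5 went down, from 2.36 ± 0.40 (SD, n = 6) to 1.77 ± 0.29 (SD, n = 6), a difference of -0.59 (two-sided exact permutation test, p = 0.0173, adjusted over 4 ratios 0.0231). The ratios were not corrected for transcript length, so their sign does not give the more abundant transcript of a pair. Divided by transcript length, mean G0s2 was above mean Pnpla2 in both groups. The values were 235 and 66.2 CPM per kb in FLO livers and 135 and 74.7 CPM per kb in fibrotic livers.

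**Figure D3:**
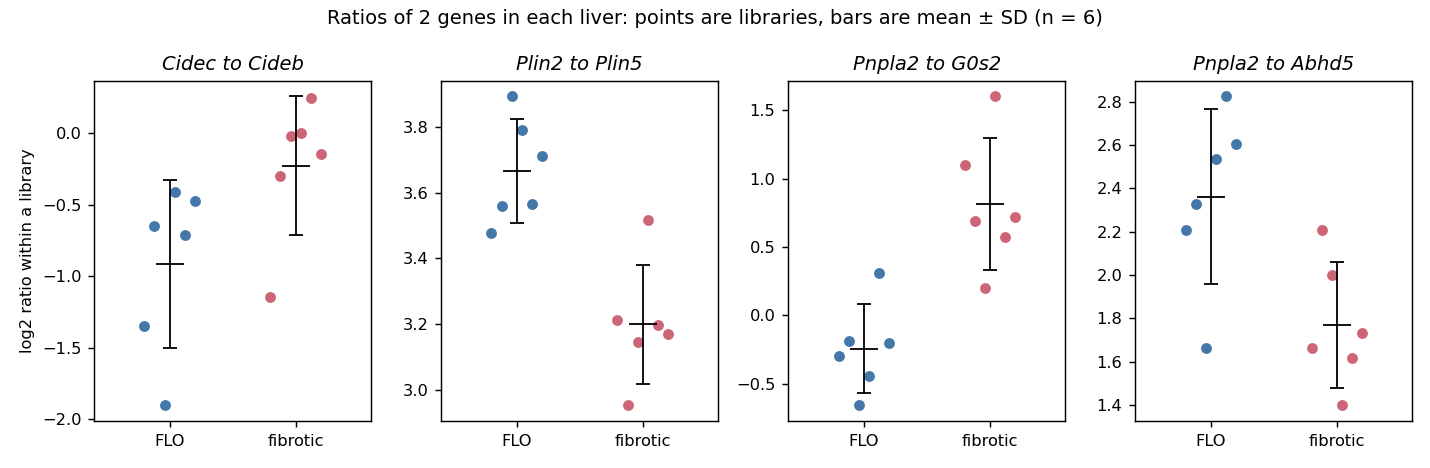
Log2 ratio of 2 transcripts within each library (vertical axis), for FLO (blue) and fibrotic (red) livers, with points for libraries and bars for mean ± SD (n = 6). Plin2 to Plin5 fell by 0.47 and Pnpla2 to G0s2 rose by 1.06. The rise of 0.69 in Cidec to Cideb was not past the threshold of the test. Of its fibrotic libraries, only replicate 1 (-1.14) lay within the FLO range of -1.90 to -0.41.

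To compare levels between genes, CPM were divided by the length of the longest annotated transcript in kilobases. In FLO livers the order was Plin2 (712 CPM per kb), Hsd17b13 (319), Cideb (279), Fitm1 (166), Cidea (129.7), Cidec (111), Pnpla2 (66.2), Plin5 (53.5), Fitm2 (27.3) and Plin4 (11.8). In fibrotic livers Plin2 (729 CPM per kb), Hsd17b13 (209.7), Cideb (129) and Fitm1 (121) kept the leading places, followed by Cidec (80.2), Plin5 (76.1), Pnpla2 (74.7), Cidea (62.5), Fitm2 (43.7) and Plin4 (5.82). Most neighbours in this order had overlapping ranges over the 6 libraries. The ranges were separate for Plin2 and Hsd17b13 in both groups, for Cideb and Fitm1 in FLO livers and for Fitm2 and Plin4 in fibrotic livers. The places of Cidea, Cidec, Pnpla2 and Plin5 were therefore not resolved in either group.

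Within a group, the same mice were low for most of the set. FLO replicate 3 had the lowest level of its group for 9 of the 10 genes, and FLO replicate 1 the second lowest for 8. In the fibrotic group, replicate 1 was lowest for 5 genes and replicate 4 for 4. FLO replicate 3 lay 1.95 below its group mean for Plin4, 1.18 for Cidea, 1.01 for Cidec and 0.52 for Plin2 on the log2 scale, but 0.03 for Cideb. Fibrotic replicate 4 differed from FLO replicate 3 in kind, being lowest for Cideb, Fitm1, Hsd17b13 and Plin4 while holding the highest Fitm2 level. Such deviations are a description of 12 mice, and their relation to liver fat, which the files do not give, was not tested.

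**Figure D4:**
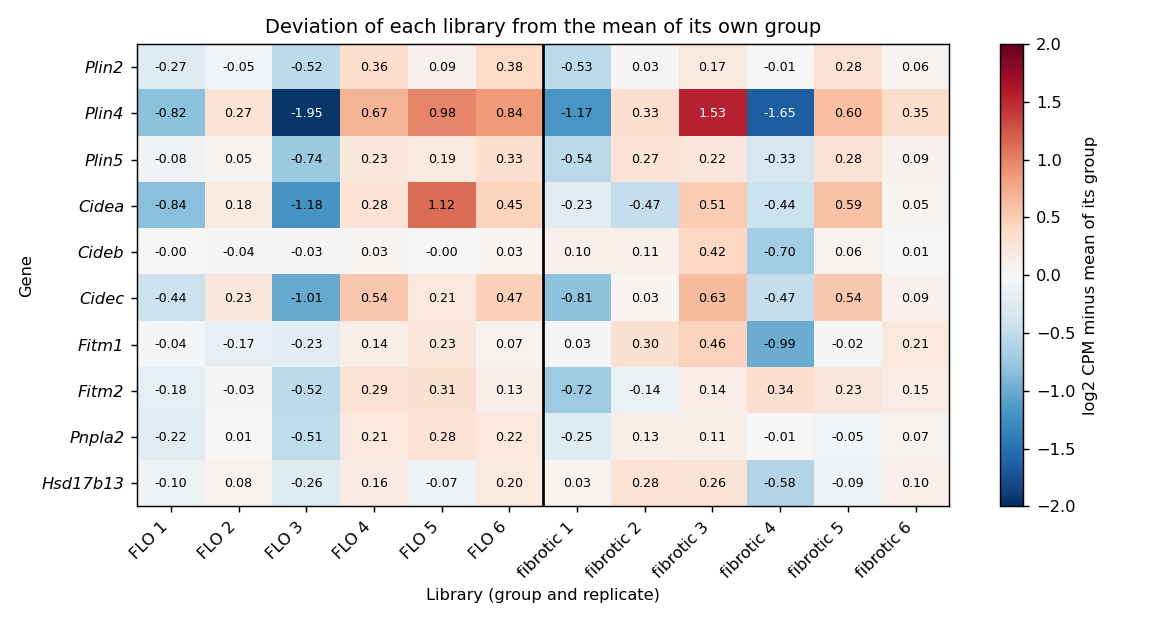
Deviation of each library from the mean of its own group in log2 CPM (colour scale and printed values), with genes in rows and libraries in columns, FLO on the left of the black line. FLO replicate 3 is negative for all 10 genes, down to -1.95 for Plin4, and Cideb is near 0 across the FLO group.

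Markers of several cell types differed between the groups in their summed level. Macrophage markers (6 genes, none at 0 counts) were 108 to 133 CPM in FLO and 139 to 311 CPM in fibrotic livers, and lipid-associated macrophage markers were 76.9 to 147 and 144 to 357 CPM. Spp1 was the most abundant of the latter, with means of 60.5 CPM in FLO and 122 CPM in fibrotic livers. Spp1, Cd9 and Lpl were called higher. Trem2 (1.01, FDR = 0.0451), Gpnmb (0.48, FDR = 0.398) and Fabp5 (-0.77, FDR = 0.0216) were not called. The 4 Kupffer cell markers gave 75.7 to 97.8 CPM in FLO and 112 to 184 CPM in fibrotic livers. Of the macrophage, lipid-associated macrophage and Kupffer cell lists, 4 of 6, 3 of 6 and 3 of 4 genes were called higher. Of all tested genes, 15.9% were called higher and 14.0% lower. The 4 endothelial markers gave 104 to 118 CPM in FLO and 68.9 to 100.4 CPM in fibrotic livers, with 1 of 4 called lower. The 4 cholangiocyte markers gave 6.27 to 12.9 and 10.3 to 37.2 CPM, with 2 of 4 called higher. The 6 stellate cell markers, from the cells that form scar matrix, summed to 77.3 to 133 CPM in FLO and 84.7 to 159.7 CPM in fibrotic livers (two-sided exact permutation test, p = 0.589), with 2 of 6 higher. Col1a1, the collagen gene of that list, had a log2 fold change of -0.22 (FDR = 0.611). The name fibrotic is that of the labels. The 7 hepatocyte markers found, of 8 listed, had a sum of 77679 to 91397 CPM in FLO and of 51788 to 87916 CPM in fibrotic livers. Of these, 1 rose and 2 fell (42.9% called, beside 29.9% of all tested genes). The part of these shifts in the results for Plin2, which macrophages also express, and for Cideb and Hsd17b13, which are hepatocyte genes, was not tested.

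The other genes of droplet biology were read from 7 lists. Of the 2 remaining perilipins, Plin1 was too low to test, and Plin3, a coat protein that moves between cytosol and droplet, had a log2 fold change of -0.68 (FDR = 0.0105), just short of the call. It was called under 9 of 24 alternatives, with DESeq2 (FDR = 0.00222) and limma-voom (FDR = 0.00589) among them. Plin3 measured 49.3 ± 4.67 CPM (SD, n = 6) in FLO and 30.8 ± 10.3 CPM (SD, n = 6) in fibrotic livers, and the groups did not overlap.

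For lipolysis and its regulators, 18 genes were tested, of which 1 rose and 9 fell, with a median log2 fold change of -0.81. The share called was 55.6%, beside 29.9% of all tested genes. The one that rose was Abhd5. The 9 that fell include G0s2, an inhibitor of lipolysis, and several carboxylesterase genes of 1 family. Mgll, the lipase of the last step, monoglyceride hydrolysis, fell by 0.82 on the log2 scale (FDR = 1.28e-05). Pnpla3, a droplet lipase homologous to Pnpla2, fell as well, with 2.74 ± 3.02 CPM (SD, n = 6) in FLO and 0.413 ± 0.235 CPM (SD, n = 6) in fibrotic livers, low levels that rest on 399 counts in all. The Pnpla3 log2 fold change was -2.74, and -1.88 without FLO replicate 3, which held 8.81 CPM beside a group median of 1.42. Of the carboxylesterase genes, those with the largest called changes had log2 fold changes of -4.90 for Ces3a, -2.11 for Ces3b, -2.09 for Ces2a and -1.19 for Ces1g, although near-identical family members make the single Ces values uncertain. Ces1d, a main triglyceride hydrolase of liver, had a value of -0.87 and was not called (FDR = 0.0451), with 1104 ± 83.4 CPM (SD, n = 6) in FLO and 606 ± 302 CPM (SD, n = 6) in fibrotic livers. Lipe, hormone-sensitive lipase, had a value of -0.38 (FDR = 0.0779) and Hilpda, a hypoxia-induced inhibitor of Pnpla2, of 0.46 (FDR = 0.307). Neither was called.

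Of 18 tested genes of droplet biogenesis and triglyceride synthesis, 7 were higher, 2 were lower and 9 were not called, with a median of 0.34. The share called was 50%, beside 29.9% of all tested genes. Dgat1 and Dgat2, the enzymes of the last step of triglyceride synthesis, rose by 0.56 each (FDR = 1.71e-05 and 0.00311). The Dgat2 value dipped to 0.49, under the size limit of the call, without fibrotic replicate 2 or 3. The monoacylglycerol acyltransferase genes changed in opposite directions, Mogat2 by 2.30 and Mogat1 by -1.82. Acsl4, a ligase for arachidonic acid, rose by 1.91 and Tmem159, which encodes the seipin partner LDAF1, by 1.30. Bscl2, the gene of seipin itself, had a log2 fold change of 0.41 (FDR = 0.000134), under the size limit, with no overlap between groups.

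Among other droplet-resident or trafficking proteins, 3 of 24 tested genes rose and 7 fell, with a median of -0.10. The share called was 41.7%, beside 29.9% of all tested genes. Rdh16, a retinol dehydrogenase, had a log2 fold change of -1.47, Cyb5r3, cytochrome b5 reductase, of -1.03, and Mettl7a1, a methyltransferase-like droplet protein, of -0.95. Sccpdh rose by 0.97. 

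Of the transcription factors known to act on droplet genes, 2 were higher and 1 was lower of 15 tested, with a median of 0.15. That is 20% called, below the 29.9% of all tested genes. Pparg, the factor of adipose differentiation, measured 28.4 ± 5.46 CPM (SD, n = 6) in FLO and 28.5 ± 7.56 CPM (SD, n = 6) in fibrotic livers, a log2 fold change of 0.00 with a 95% interval from -0.37 to 0.37 and a sign that changed with the scaling. Ppara, the factor of fatty acid oxidation, had a value of -0.41 (FDR = 0.196). Srebf1, the gene of the lipogenic factor SREBP1, fell by 2.17, while Cebpb rose by 0.98 and Ppard by 0.61.

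Fatty acid uptake and transport genes had 1 higher and 5 lower of 13 tested (median 0.02, 46.2% called, beside 29.9% of all tested genes). Fabp1, the main fatty acid carrier of the hepatocyte, changed by -2.72, Fabp2 by -1.89 and the transport protein gene Slc27a5 by -1.39, whereas Lpl, lipoprotein lipase, rose by 1.64. Of 16 PPARA target genes, which serve fatty acid oxidation for the most part, 4 rose and 3 fell (median 0.19, 43.8% called). Pdk4, a brake on glucose oxidation, rose by 2.35 and Cyp4a14 by 0.92, although the latter has close paralogs, while Cpt1a, the entry enzyme of mitochondrial oxidation, fell by 0.90. The Pdk4 value was 1.76 without fibrotic replicate 4. Across the 7 lists, 45 of 105 tested genes were called (42.9%), 18 higher (17.1%) and 27 lower (25.7%), beside 29.9%, 15.9% and 14.0% of all tested genes.

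**Figure D5:**
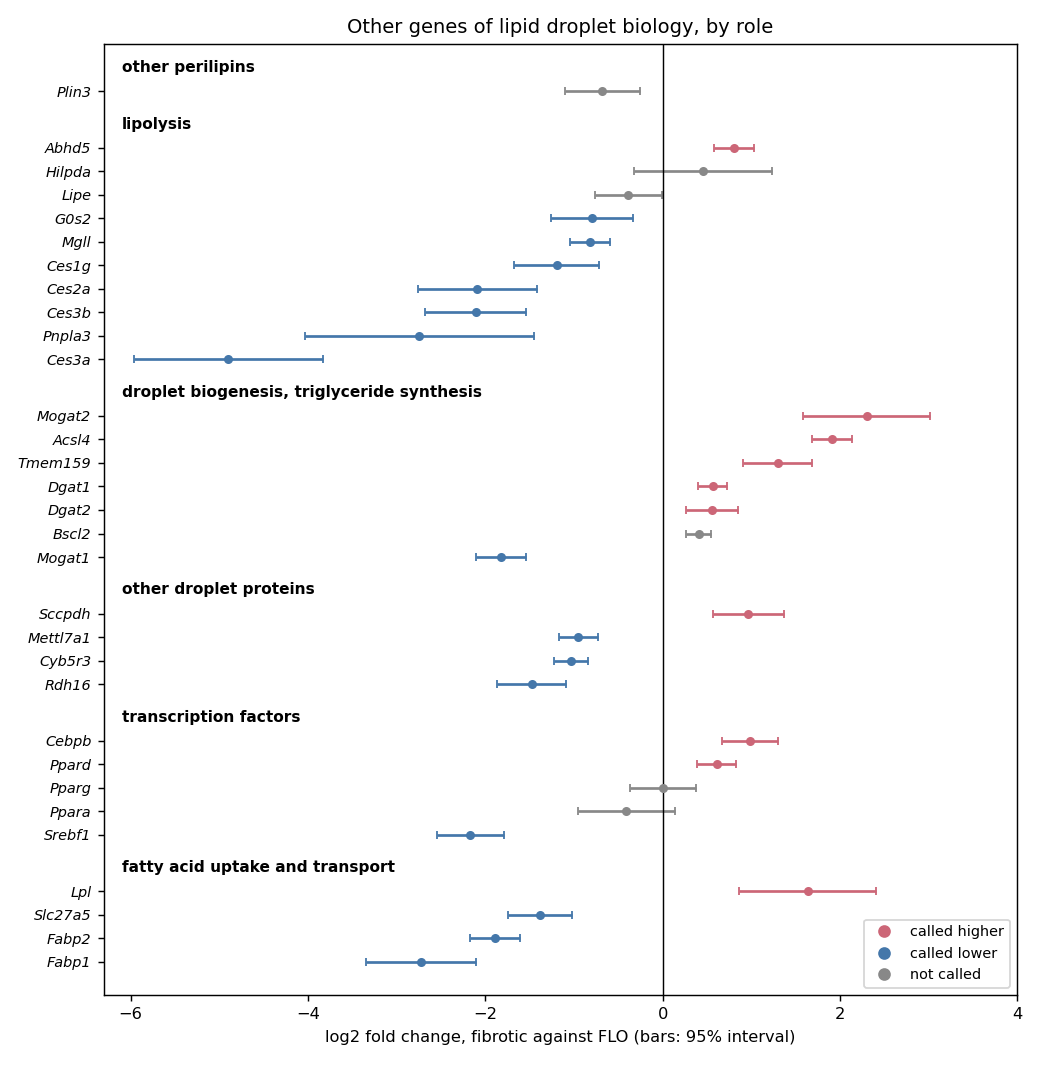
Log2 fold change (horizontal axis, with 95% intervals) of the named genes of 6 lists in fibrotic against FLO livers, grouped by role, without the PPARA targets. Red points were called higher, blue lower and grey not called. Abhd5 is the only red point among the plotted lipolysis genes, whereas Mogat1 is the only blue one among the plotted biogenesis genes.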

How the data were processed

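RNA of 12 livers was measured, 6 fibrotic and 6 FLO, and groups and replicate numbers were read from the sample titles. The table that the authors deposited holds unnormalized counts, 1 row for each Ensembl gene. The submitters' processing notes name bcl2fastq, STAR 2.7.3a and mm10, and PISCES is the quantifier in the study's methods. The annotation and the strand setting of these mouse libraries are not given in the sources used here. Symbols came from a name table that matched 51745 of 56205 identifiers, and gene positions and lengths from GENCODE M21 (GRCm38).

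The test was the quasi-likelihood F test of edgeR 4.0.16 under R 4.3.3, with TMM scaling, filterByExpr, a robust fit and Benjamini-Hochberg adjustment over 13416 genes. A call needed an FDR of at most 0.01 and a log2 fold change of more than 0.5 in size, as in the study's methods. The SE is the absolute log2 fold change over the square root of F. Ratios of transcripts used log2 CPM with a prior count of 2 and a two-sided exact permutation test over 924 assignments, whose smallest p is 0.00216. The fit was tested on simulated data.

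The genes, lists and ratios were chosen with earlier results of these data known. Named were the 10 genes, 13 further anchor genes of droplet biology and, per list, up to 4 called genes with the largest change, of which 1 is not reported here. Genes that overlap exons of the 10, Ces1d and single cell type markers were named after their values were seen. The labels do not say that mice of a group were housed or handled apart, no sequencing batch is given, and p-values measure the spread between these livers. Every within-group pair of libraries differed by more than sampling noise. Alternatives were other normalizations, filters, thresholds and tests (DESeq2 1.42.0 and limma 3.58.1 voom), a replicate block, a sex covariate and leaving out each library. Leaving out FLO replicate 3 and fibrotic replicate 4 together was added after the data were examined.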

Additional observations from a re-analysis of the deposited data

Results flagged for a closer look

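Dixon's ratio sets the gap of an end value to the next one against the whole range of its 6 libraries. Over 98 ratios, 7 were larger than the 95% limit, where chance gives about 1 in 20, or 4.9. Of the lipid droplet genes, Plin2 was low in fibrotic replicate 1 (ratio 0.635), and Cideb (0.629) and Fitm1 (0.666) were low in fibrotic replicate 4. Hilpda (0.715) and Acsl4 (0.691) were high in fibrotic replicate 4. In the FLO group, Pparg was high in replicate 4 (0.839) and Acsl4 in replicate 3 (0.726).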

How the results depend on the processing

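Of the 10 lipid droplet genes, 6 kept their sign and their side of the threshold under all 24 alternatives, among them Cideb and Hsd17b13. The number called was 3 in most settings. It ran from 2 to 4 with 1 library left out, was 4 with a sex covariate, which added Cidea (-1.22, FDR = 0.00511), was 2 without both FLO replicate 3 and fibrotic replicate 4 (Fitm2 0.53, FDR = 0.0148), and was 6 at an FDR of 0.05 with no size limit and 1 at a log2 fold change over 1. For all genes the last pair of thresholds gave 6994 and 1697 calls, and for the 7 lists the larger size limit gave 19. The sign of Plin2 turned with a sex covariate (-0.0543), without both of those libraries (-0.0413) and in single fits without a library (-0.0563 to 0.125), and that of Hilpda without both libraries (-0.0582). Pparg, near 0, turned with RLE (-0.0189), upper quartile scaling (-0.0305), TMM without mitochondrial genes (-0.000238), no low-count filter (-0.000499), DESeq2 (-0.0163), limma-voom (-0.0349), a sex covariate (-0.0323) and a replicate block (-0.0247), and lay between -0.0658 and 0.119 with 1 library left out. The cause of these turns was not tested. No scaling moved the median of all tested genes by as much as 0.1.

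For libraries with the same replicate number, the deviations from the group means correlated by -0.162 to 0.104 over genes. The labels do not say whether these numbers pair mice, and such correlations cannot show that they do not. With the replicate number as a block, 3 lipid droplet genes were called, G0s2 (FDR = 0.0150) and Lpl (FDR = 0.0214) were not, the log2 ratio of Cidec to Cideb (0.69) had an exact sign-flip p of 0.0313, the smallest that test can give, and that of Pnpla2 to Abhd5 (-0.59) an exact sign-flip p of 0.0938. With 1 library left out, the differences in log2 ratio lay between 0.49 and 0.87 for Cidec to Cideb, -0.53 and -0.42 for Plin2 to Plin5, 0.90 and 1.18 for Pnpla2 to G0s2, and -0.73 and -0.50 for Pnpla2 to Abhd5. Changes near the threshold, such as those of Plin5, Cidea, Fitm1 and Fitm2, rest on the spread between 6 livers per group.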
